A study of Mus musculus with 2 samples.

Results

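The Mir290 and Mir302 clusters are 2 groups of miRNA genes known for their high levels in pluripotent cells. Of the 2202 miRNA genes counted in neonatal mouse adrenal gland, 10 were taken as members by their GENCODE M21 gene names. These were 6 genes of the Mir290 cluster (Mir290a, Mir291a, Mir291b, Mir293, Mir294 and Mir295) and 4 of the Mir302 cluster (Mir302a, Mir302b, Mir302c and Mir302d). The samples were 2 miRNA sequencing libraries of 1 group, adrenal gland tissue of female mice aged 4 days of the strain B6CASTF1/J, the first-generation hybrids of C57BL/6J and CAST/EiJ. The labels number them as biological replicates 1 and 2 and name a different female for each, while 1 donor identifier stands on both. If they do not stem from separate animals, the spread between them is technical. With no second condition, the comparisons open to these data are those between the members, between the 2 clusters and between the 2 libraries.

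A miRNA is cut from a hairpin precursor, whose 5p and 3p arms can each give a mature strand. The mature strand finds its target messages mainly through its seed, bases 2 to 8 counted from the 5′ end, so miRNAs with the same seed share many targets. The Mir290 cluster is the leading miRNA locus of mouse embryonic stem cells, and the Mir302 cluster is known from the epiblast that follows. Both are also known from primordial germ cells, and both promote the step from G1 to S phase. The let-7 family, abundant in differentiated tissue, works against this programme.

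The 3p arms show the relationship between the clusters. Mature sequences are from RefSeq (GRCm38.p6), 5′ to 3′, with the seed in capitals. The 3p arm of Mir302a (miR-302a-3p) is not shown here, and Mir302a was placed in no 3p seed group. Of the other hairpins, 5, from both loci, had a 3p arm with the seed AAGUGCU:
miR-291a-3p: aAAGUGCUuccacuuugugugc
miR-294-3p: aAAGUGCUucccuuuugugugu
miR-295-3p: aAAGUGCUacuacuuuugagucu
miR-302b-3p: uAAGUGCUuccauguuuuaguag
miR-302d-3p: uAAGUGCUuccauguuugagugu

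The other 3p arms listed for the members each had a seed that no other listed member arm carried:
miR-290a-3p: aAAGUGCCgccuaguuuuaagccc
miR-291b-3p: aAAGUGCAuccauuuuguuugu
miR-293-3p: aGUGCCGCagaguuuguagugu
miR-302c-3p: aAGUGCUUccauguuucagugg

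The miR-302c-3p sequence starts 1 base later than its neighbours, so its seed is shifted along the same run of bases. For Mir302a only the 5p arm is shown, which says nothing of its 3p seed, beside the 5p arms of the leading Mir290 cluster genes:
miR-302a-5p: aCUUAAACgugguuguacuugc
miR-293-5p: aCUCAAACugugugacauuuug
miR-294-5p: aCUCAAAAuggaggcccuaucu

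Near-copies within a cluster differ at few bases. From base 1 at the 5′ end, miR-302b-3p and miR-302d-3p differed over 23 bases at U18G, A22G and G23U. Over 22 bases, miR-291a-3p and miR-294-3p differed at A12C, C13U and C22U. The 5p arms of Mir291a and Mir291b differed at C1G and U22C alone. No listed mature sequence of a member occurred whole in another hairpin of the table. The first 18 bases of miR-302b-3p occurred in 1 other hairpin. Over whole hairpins, 4 members shared a run of 18 bases with another locus, and in each case the partner lay in the same cluster (Mir291a with Mir291b, Mir302a with Mir302b). Reads that map to several places were counted for no gene, so short reads from these 4 genes can be missing from their counts.

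The Mir290 cluster members lie on the plus strand of chromosome 7, from Mir290a (3218626 to 3218708, mm10) to Mir295 (3220773 to 3220841). Between them lie Mir291a (3218919 to 3219000), Mir291b (3219482 to 3219560), Mir293 (3220343 to 3220422) and Mir294 (3220641 to 3220724). All but Mir290a overlap an annotated exon of Nlrp12 in its untranslated part, on the opposite strand. Mir290a lies outside Nlrp12 but opposite to the annotated hairpin Mir290b. The Mir302 cluster lies on the plus strand of chromosome 3, in the order Mir302b (127545228 to 127545301), Mir302c (127545363 to 127545430), Mir302a (127545496 to 127545564) and Mir302d (127545624 to 127545689). All 4 lie opposite to an intron of Larp7, a gene for an RNA-binding protein, and overlap none of its exons. No read of either library lay on the strand opposite to a member.

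Replicate 1 gave 4960537 reads on the annotated strand of miRNA genes, and replicate 2 gave 4506482. A further 25.9% and 27.8% of all reads mapped to several places. The adrenal and neuroendocrine list (8 genes, such as Mir375 and Mir21a) held 7.11% and 7.10% of the miRNA reads, with all 8 detected. In the test between libraries below, 4 of the 8 were called higher in replicate 2, Mir375 and Mir21a among them. The 2 called higher in replicate 1 were Mir125a (56727 and 23091 reads) and Mir202 (391 and 173). The shares called over all genes tested were 35.5% towards replicate 2 and 32.6% towards replicate 1. Detection required 10 or more reads in each library, which 377 genes reached, all 10 members among them. A hairpin's 2 arms were counted together, and a read spans 1 mature miRNA, so levels in CPM (miRNA reads scaled to a common total) were not divided by length.

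Both clusters were present in both libraries at a low level. The Mir290 cluster members had 1177 reads in replicate 1, or 0.0237% of the miRNA reads (95% Wilson interval 0.0224 to 0.0251), and 1269 reads in replicate 2, or 0.0282% (0.0267 to 0.0298). The Mir302 cluster members had 557 reads, or 0.0112% (0.0103 to 0.0122), and 538 reads, or 0.0119% (0.0110 to 0.0130). The mean levels were thus 0.0259% ± 0.0031 and 0.0116% ± 0.0005 (SD, n = 2 for both). Intervals here cover the counting error of reads only, and not the spread between libraries or animals. Reads copied by PCR and lacking molecular identifiers do not count separate molecules, so the intervals can be too narrow for molecules. In bulk tissue, few cells with much of a miRNA and many cells with little cannot be told apart. For scale, the 11 let-7 genes listed held 17.7% and 20.0% of the reads, 507 and 499 times the reads of all 10 members together. For 9 of these 11 a run of the hairpin recurs elsewhere, so the let-7 share is uncertain. The 6 genes of the miR-17 family, whose seed is offset by 1 base from that of miR-302, held 0.931% and 0.791%.

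The Mir290 cluster gave more reads than the Mir302 cluster in each library. The ratio of the summed reads was 2.11 in replicate 1 (95% exact interval 1.91 to 2.34) and 2.36 in replicate 2 (2.13 to 2.61), a mean of 2.24 ± 0.17 (SD, n = 2). Each ratio is taken within a library, so no scaling between libraries enters it. The excess rested on Mir293 and Mir294, without which the other 4 Mir290 members had 97 and 127 reads, fewer than the 557 and 538 of the Mir302 members. The median member of the Mir290 cluster had 7.36 CPM in replicate 1 and 10.9 in replicate 2, below the Mir302 cluster's medians of 32.3 and 36.4 CPM. With Mir291a, Mir291b, Mir302a and Mir302b left out for their shared runs, the ratio was 4.66 and 5.58. That step removes 2 of the abundant Mir302 genes but only small counts from the other cluster. No p is given for the difference between clusters, since a permutation test over 2 libraries cannot give a small p. The members were also chosen with results of these data known.

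Mir293, whose seeds differ from the AAGUGCU group, was 1 of the 2 leading members. It had 473 reads in replicate 1 (95.4 CPM) and 639 in replicate 2 (142 CPM). Mir294, of the AAGUGCU group, had 607 reads (122 CPM) and 503 (112 CPM). The order of these genes was thus reversed between the libraries, and their means of 119 CPM ± 32.8 and 117 CPM ± 7.60 (SD, n = 2 for both) did not separate. Together they held 91.8% and 90.0% of the cluster members' reads.

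The Mir302 cluster had 3 members at similar levels. Mir302d had 226 reads in replicate 1 (45.6 CPM) and 186 in replicate 2 (41.3 CPM). Mir302b had 177 reads (35.7 CPM) and 157 (34.8 CPM). Mir302a had 143 reads (28.8 CPM) and 171 (37.9 CPM). These 3 genes held 98.0% and 95.5% of the Mir302 members' reads, and each was below both Mir293 and Mir294 in both libraries. Mir302c, the gene with the shifted 3p seed, had only 11 reads (2.22 CPM) and 24 (5.33 CPM).

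The remaining Mir290 cluster members were low in both libraries. Mir291a had 56 reads in replicate 1 (11.3 CPM) and 77 in replicate 2 (17.1 CPM). Its near-copy Mir291b had 17 reads (3.43 CPM) and 21 (4.66 CPM). Mir291a thus took 76.7% and 78.6% of the reads of this pair, a share whose exact intervals overlap widely (65.4 to 85.8 and 69.1 to 86.2). Mir295 had 12 reads (2.42 CPM) and 19 (4.22 CPM). Mir290a had 12 reads (2.42 CPM) and 10 (2.22 CPM), at the detection minimum.

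In the order of mean level, the library values of some neighbours overlapped. This held for Mir293 and Mir294, for Mir302b and Mir302a, and for each step from Mir291b through Mir302c and Mir295 to Mir290a. The steps from Mir294 to Mir302d, from Mir302d to Mir302b, from Mir302a to Mir291a and from Mir291a to Mir291b were free of overlap. Among the 377 detected genes, Mir293 ranked 199th by mean CPM and Mir290a 376th, so all 10 members lay below the middle of this ranking by the mean. By library, among all 2202 genes, Mir293 ranked 216th in replicate 1 and 177th in replicate 2. Mir294 ranked 203rd and 188th.

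**Figure D1:**
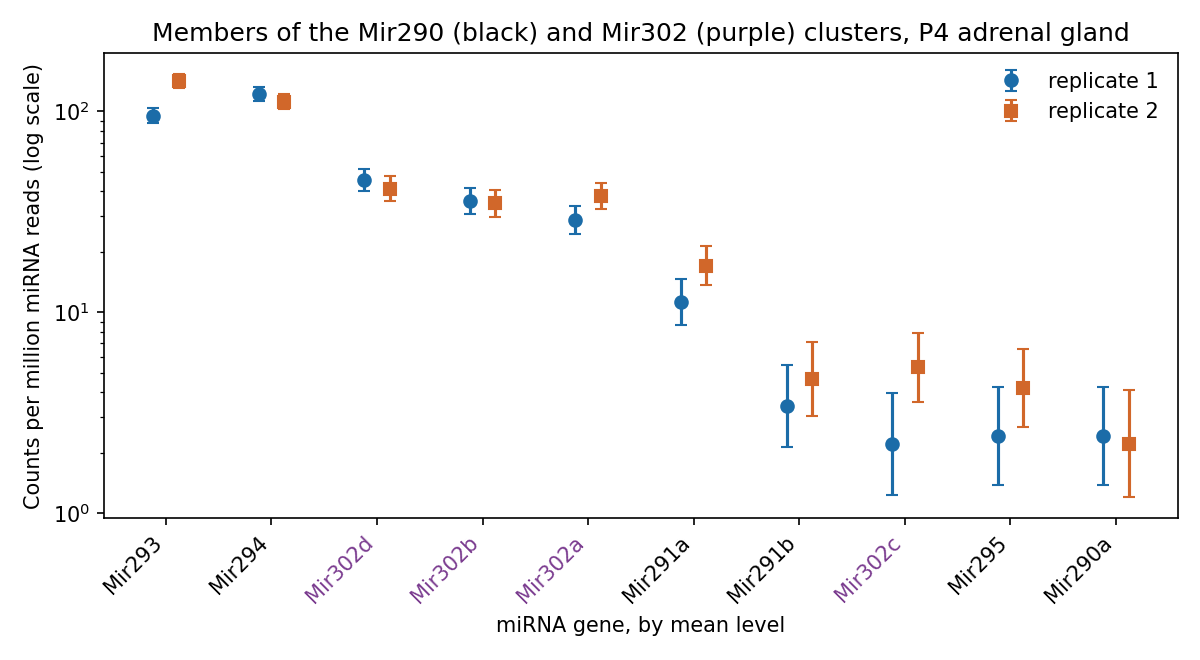
Level of each member in CPM (log axis), in order of mean level, for replicate 1 (circles) and replicate 2 (squares). Bars are 95% Wilson intervals of the reads; Mir293 (95.4 and 142) and Mir294 (122 and 112) lead, and 4 genes sit near or below 5 CPM.

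Levels followed no simple course along either locus, although each group of neighbours is known to be processed from a shared primary transcript. Mir294 and Mir295 lie closest together of the Mir290 members, yet Mir294 had 50.6 times the reads of Mir295 in replicate 1 (95% exact interval 28.7 to 98.4) and 26.5 times in replicate 2 (16.8 to 44.3). The cluster holds a further plus-strand hairpin, Mir292 (also named Mir292a; 3219189 to 3219270), which is not a member here. It had 288 reads (58.1 CPM) and 306 (67.9 CPM), more than any Mir302 gene. The annotated minus-strand hairpins Mir290b and Mir292b had 0 reads in both libraries.

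Mir367, the last hairpin of the Mir302 cluster (127545733 to 127545807), also had 0 reads in both. It carries the unrelated seed shown here, which places it in the family of miR-25 and miR-92:
miR-367-3p: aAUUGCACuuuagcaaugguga

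A count of 0 allows a level of up to 0.605 CPM in replicate 1 and 0.666 CPM in replicate 2, taking 3 reads as the limit. The count of Mir302d was 75.3 times this limit in replicate 1 and 62.0 times in replicate 2. These folds leave out the counting error of Mir302d itself. The hairpin of Mir367 shares no run of 18 bases with another. A CAST/EiJ difference from the reference could lower any of these counts, and this was not tested.

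**Figure D2:**
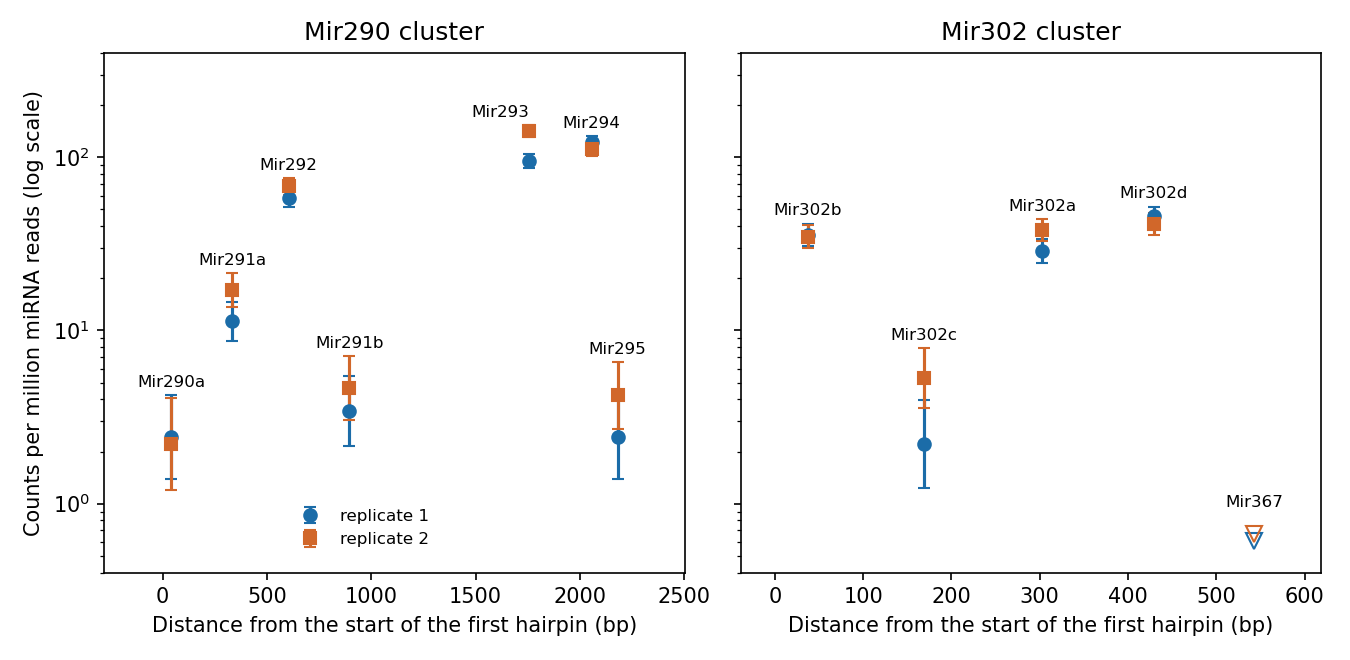
Level of the plus-strand hairpins (CPM, log axis) against the distance from the start of the first hairpin of the Mir290 cluster (left) and the Mir302 cluster (right), with 95% Wilson intervals. Open triangles mark a count of 0, drawn at the level of 3 reads (0.605 and 0.666 CPM); Mir294 and its neighbour Mir295 lie 50.6-fold and 26.5-fold apart.

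The makeup of the Mir290 cluster differed between the libraries beyond counting error. In level, 68.2% of all 377 genes tested also differed beyond counting error (test below). Mir294 took 51.6% of the Mir290 members' reads in replicate 1 (95% exact interval 48.7 to 54.5) and 39.6% in replicate 2 (36.9 to 42.4). Mir293 took 40.2% (37.4 to 43.1) and 50.4% (47.6 to 53.1). The ratio of Mir294 over Mir293 was 1.28 (1.14 to 1.45) and 0.787 (0.699 to 0.886). For these genes the intervals of the libraries do not overlap. Shares of the Mir302 members' reads had overlapping intervals for each of the 4 genes. Mir302d took 40.6% (36.5 to 44.8) and 34.6% (30.6 to 38.8). Overlap does not show an equal makeup, and these intervals rest on fewer reads. The ratio of Mir302d over Mir302a was 1.58 (1.28 to 1.96) and 1.09 (0.879 to 1.35). In the test between libraries below, Mir302a and Mir302c were called, and Mir302b and Mir302d were not.

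Grouped by seed, the 5 hairpins with a listed AAGUGCU arm held 62.2% of all member reads in replicate 1 (59.8 to 64.5) and 52.1% in replicate 2 (49.8 to 54.5). Mir302a (143 and 171 reads), whose 3p arm was not used here, is not among the 5, so the share of the seed may be larger. Since arms were counted together, these shares are of hairpins and not of the 3p strand. Mir293 alone, with the 3p seed GUGCCGC, held 27.3% (25.2 to 29.4) and 35.4% (33.2 to 37.6). Across the RefSeq table, 3 genes outside the members carried a seed of a listed member arm. Mir350, whose 5p arm shares AAGUGCA with miR-291b-3p, had 109 CPM and 141 CPM, or 125 CPM ± 22.2 (SD, n = 2). The others were Mir292, which shares CUCAAAC with the 5p arms of Mir290a and Mir293, and Mir292b. The 3p arm of Mir292 is not listed, so a seed it shares with a member would be missed. No listed arm of a gene outside the members carried AAGUGCU.

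**Figure D3:**
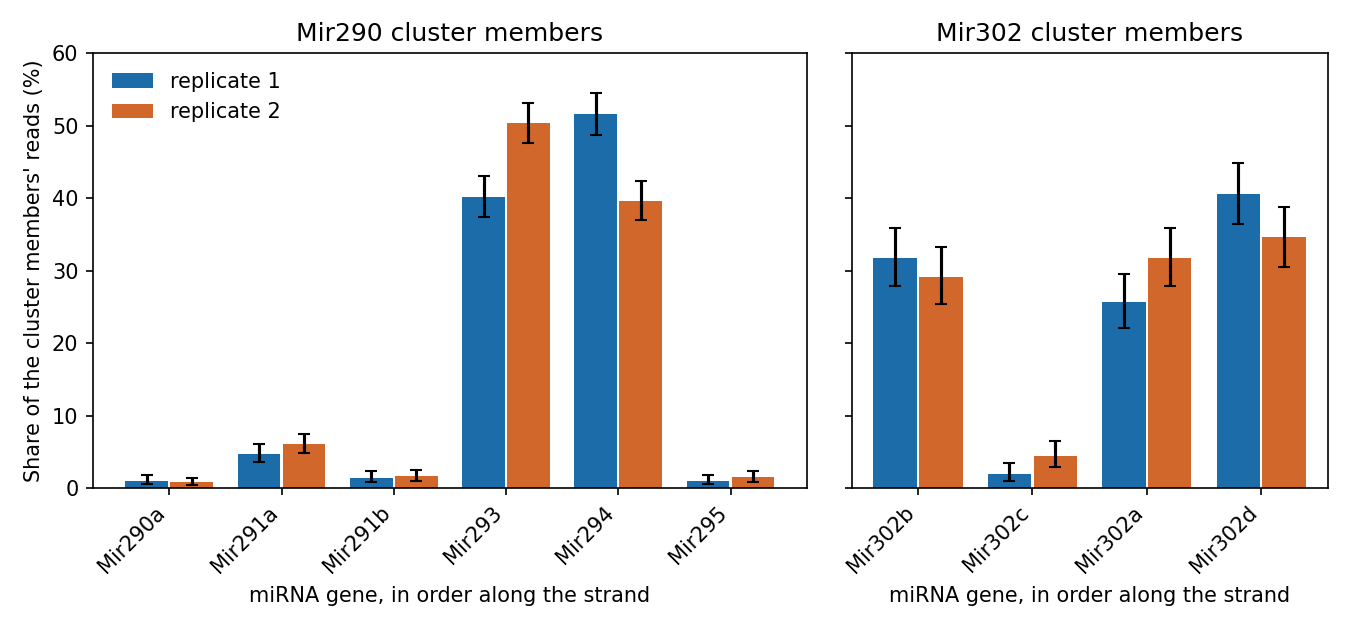
Share (%) of each cluster's member reads taken by each gene, in order along the strand, in replicate 1 (blue) and replicate 2 (orange). Bars start at 0 and carry 95% exact intervals; Mir294 leads the Mir290 members in replicate 1 (51.6%) and Mir293 in replicate 2 (50.4%).

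Between the libraries, 4 of the 10 members were called, each with the higher level in replicate 2. Each gene's reads in the 2 libraries were set against the TMM-scaled library sizes (trimmed mean of M-values) by a two-sided exact binomial test, adjusted by Benjamini-Hochberg over the 377 genes. It compares these 2 libraries and takes counting error as the only error. Of all genes tested, 68.2% were called in either direction, 35.5% were called higher in replicate 2 and 32.6% higher in replicate 1, so the members' share of calls towards replicate 2 was near the background. Under edgeR's exact test, which uses the spread of the pair itself, no member passed, none had an unadjusted p under 0.05 and the adjusted p was 1 for each. That test called 1.86% of the 377 genes, with 9.98 (Mir195a) as the smallest fold among them. The largest fold of a member was 2.63 (Mir302c). The differences under test also set the test's error, so it cannot decide whether the members differ.

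The 4 called genes came from both clusters. Mir293 was 1.63-fold higher in replicate 2 (log2 ratio towards replicate 2 of 0.70, 95% exact interval 0.53 to 0.88, adjusted p = 1.65e-15, exact binomial test). Mir291a was 1.66-fold higher (0.73, 0.21 to 1.25, adjusted p = 0.00648, exact binomial test). Mir302a was 1.44-fold higher (0.53, 0.20 to 0.86, adjusted p = 0.00206, exact binomial test). Mir302c was 2.63-fold higher (1.40, 0.31 to 2.57, adjusted p = 0.0101, exact binomial test), from 11 and 24 reads. Folds are of TMM-scaled reads and exceed ratios of the CPM values by 0.13 on the log2 scale.

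Of the 6 genes without a call, the abundant ones had narrow intervals around 0. The log2 ratio was -0.0016 for Mir294 (-0.17 to 0.17), -0.01 for Mir302d (-0.30 to 0.27) and 0.10 for Mir302b (-0.22 to 0.41). The low ones had wide intervals, at 0.0065 for Mir290a (-1.36 to 1.34), 0.57 for Mir291b (-0.42 to 1.59) and 0.93 for Mir295 (-0.19 to 2.11). For Mir290a, Mir291b and Mir295 the interval includes a 2-fold difference, which was not detectable at this depth. Each cluster thus held called genes beside an abundant gene with a ratio near 0.

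The median log2 ratio was 0.64 over the 6 Mir290 members and 0.31 over the 4 Mir302 members, against 0.04 over all 377 genes. Ratios were above 0 for 8 of 10 members and for 202 of the 377 genes (53.6%). Scaling by total miRNA reads moved the median of all genes by -0.13 and left 6 of 10 members and 44.3% of all genes above 0, with the sign flipped at Mir290a and Mir302b. The same 4 members were called under that scaling. For the summed reads, the log2 ratio was 0.38 for the Mir290 members (95% exact interval 0.26 to 0.49) and 0.22 for the Mir302 members (0.05 to 0.39), whose intervals overlap.

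**Figure D4:**
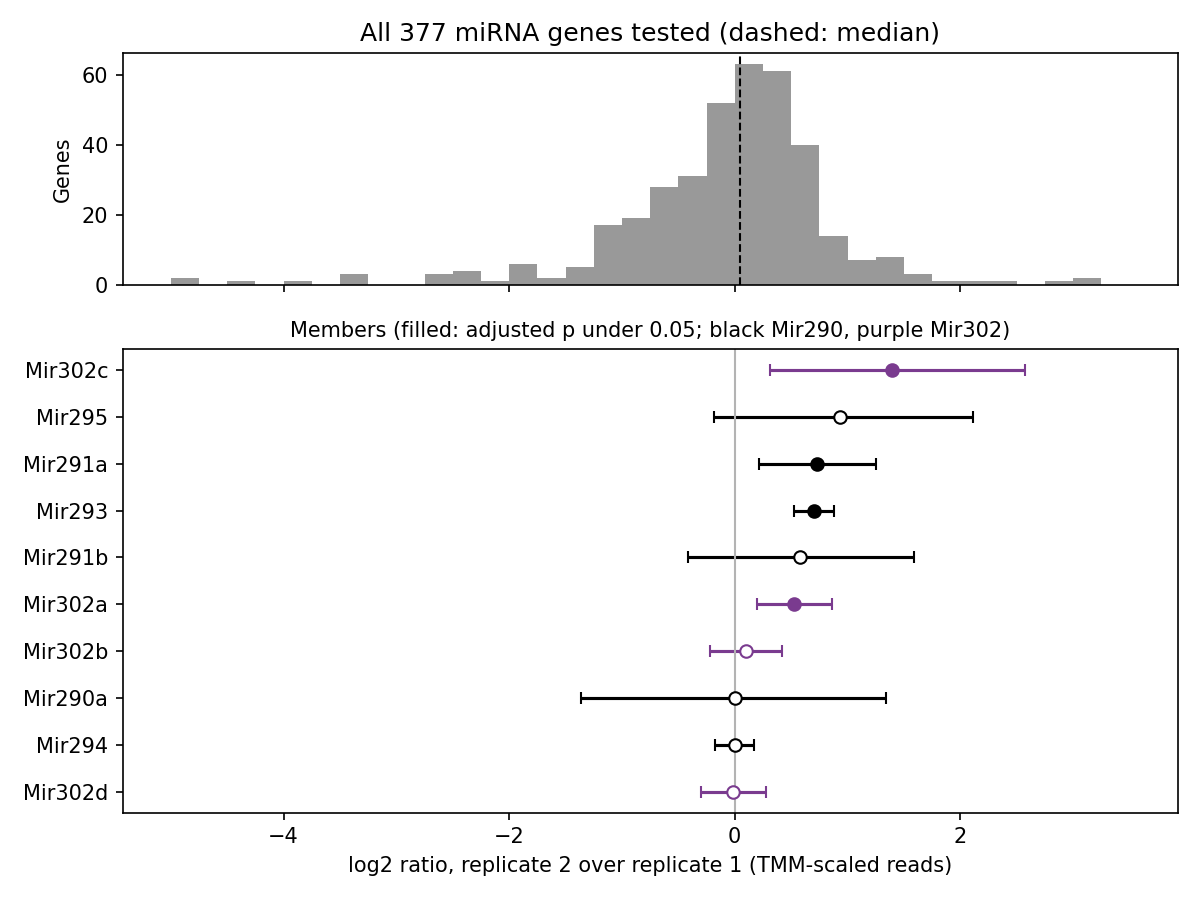
Top, histogram of the log2 ratio of replicate 2 over replicate 1 (TMM-scaled reads) for the 377 miRNA genes tested, with the median dashed (0.04). Bottom, the ratio of each member with its 95% exact interval, filled where the exact binomial test called it; the 4 filled genes are Mir302c, Mir291a, Mir293 and Mir302a.

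MiRNAs of other cell types also differed between these libraries. The epithelial list had 7 of 7 genes detected, none at 0 in both libraries. It held 0.471% of the reads in replicate 1 and 0.116% in replicate 2. Of its genes, 6 were called higher in replicate 1 and 1, Mir203, in replicate 2. Mir203 gave 2210 of the list's 23358 reads in replicate 1 and 4356 of 5248 in replicate 2. Over all genes tested, 32.6% were called higher in replicate 1 and 35.5% in replicate 2. The striated muscle list (3 of 9 detected) held 0.125% and 0.869%, with all 3 higher in replicate 2. Mir206 alone gave 6146 of its 6203 reads in replicate 1 and 38876 of 39149 in replicate 2. For 5 of the 9 a run of the hairpin recurs elsewhere, so reads of these genes can be missing from the counts. The part of either list in the members' ratios was not tested. The list of X-linked miRNAs known from germ cells and gonads held 105 reads in replicate 1 and 98 in replicate 2, or 0.00212% and 0.00217%, with 2 of its 16 genes detected. Of these, Mir547 had 49 and 66 reads and Mir201 had 20 and 14. Mir463, Mir742, Mir743b, Mir880, Mir883a and Mir883b were at 0 in both libraries.

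The genes nearest to Mir293, the member of highest mean level, were Mir679, Mir350 and Mirlet7a-2. Their Euclidean distances over log2(CPM + 1) of the 2 libraries were 0.15, 0.20 and 0.33. Mir679 had 106 and 144 CPM, Mir350 had 109 and 141 CPM, and Mirlet7a-2 had 113 and 122 CPM. With only 2 libraries this likeness describes level and no more.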

How the data were processed

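The 2 miRNA sequencing libraries used were of adrenal gland tissue from female mice of 1 group. They are labelled as biological replicates but carry 1 donor identifier. The authors deposited unscaled read counts of miRNA genes, made on assembly mm10 and annotation GENCODE M21 per the file headers. The sources used here do not give the aligner or the counter. Each table has 3 count columns and 4 leading rows that name no gene, which stayed out of library sizes and tests. From the values, the columns hold reads of both strands, of the annotated strand (used here) and of the opposite strand. In replicates 1 and 2, 42.4% and 39.9% of all reads were assigned to miRNA genes, 25.8% and 26.1% were unmapped, and 5.96% and 6.24% fell in no annotated miRNA gene.

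All 2202 gene identifiers matched GENCODE M21. Library ratios used TMM factors of edgeR 4.0.16 over all genes with a read (1.05 and 0.956) and exact binomial tests in scipy 1.17.1, called at an adjusted p under 0.05. This step was tested on data simulated with counting error only. Such data cannot show how it behaves when libraries differ by more than counting error. The tables are not copies of each other (chi-square 566135, 376 degrees of freedom). Alternatives covered the strand column, the members summed, the denominator, the scaling (with DESeq2 1.42.0 size factors), the filter and edgeR's exact test, whose dispersion comes from the same pair (biological coefficient of variation 0.433).

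The genes named are the members, the other hairpins of both clusters, genes sharing a member's seed and the 3 genes nearest to the leading member. The marker lists were adrenal and neuroendocrine, epithelial, striated muscle, germ cell and gonadal, let-7 and the miR-17 family. Members and lists were chosen with earlier results of these data known.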

Additional observations from a re-analysis of the deposited data

How the results depend on the processing

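The Mir290 cluster's mean level of 0.0259% was 0.0305% with reads on either strand, 0.0322% with all annotated hairpins of the cluster and 0.0106% as a share of all reads. The Mir302 cluster's 0.0116% was 0.0138% with reads on either strand, 0.00472% without hairpins that share runs, 0.00476% as a share of all reads and 0.0130% with Mir126a, the gene of highest mean level, out of the total. The ratio of the clusters, 2.24, was 2.78 with all annotated hairpins, 5.12 without hairpins that share runs and 1.89 with counts divided by hairpin length. These shifts follow from the reads or lengths each setting uses, and the Mir290 members led in both libraries under each. Leaving out a replicate gave 0.0237 to 0.0282% for Mir290, 0.0112 to 0.0119% for Mir302 and 2.11 to 2.36 for the ratio. In the either-strand column Mir290a and Mir292 had 0 reads, since reads over 2 overlapping genes count for neither there.

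Of the 377 genes, 257 differed between the libraries, and 7 did under edgeR's exact test. The 4 called members became 2 with at least 100 reads in both libraries, where 5 members were tested, and 0 under edgeR's exact test (unadjusted p under 0.05 for 0 of 10). The error of edgeR's test came from the same pair, so it cannot decide whether the members differ. The 4 calls held under total reads, DESeq2 size factors, no filter, reads on either strand, and TMM over the tested genes, the last chosen after seeing the data. The log2 ratio of Mir290a changed sign to -0.12 with total reads, -0.037 with DESeq2 size factors and -0.073 with TMM over the tested genes, and that of Mir302b to -0.034 with total reads. Without 1 of the libraries no ratio exists. No paired analysis was possible because the series holds 1 group. Depth limits the genes with under 25 reads in each library (Mir290a, Mir291b, Mir295 and Mir302c).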
